A study of Mus musculus with 4 samples.

Results

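The ribosomal protein genes encode the protein parts of the cytosolic ribosome, and the accessibility of their gene ends was measured in endothelial cells of the mouse retina. The members were set by a rule on gene names that uses no measured value, although earlier results of these data were known when it was chosen. They are the protein-coding genes on the 19 autosomes and X whose symbol is Rpl or Rps followed by a number and at most 1 letter, together with Rplp0, Rplp1, Rplp2 and Rpsa. Symbols ending in l, which left out 5 genes such as Rpl3l and Rps27l, pseudogenes and the S6 kinases were not included. This gave 76 genes of 21631 protein-coding genes on the same chromosomes. The measurement was ATAC-seq, in which a transposase cuts accessible DNA and tags it for sequencing. Control mice gave 2 libraries, and mice with the genotype Zeb1 knockdown gave 2 more (CKO in the sample titles), all of strain C57BL/6 and labelled P16. Zeb1 is a zinc-finger repressor, and the study compared chromatin accessibility between these groups. Each library was made from 2000 endothelial cells isolated by FACS. The sort markers, and the promoter or Cre line behind the knockdown, are not given in the sources used here. The labels do not say whether different animals gave the libraries within each group, so the spread between them may be technical.

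A ribosome has a small subunit, which reads the messenger RNA, and a large subunit, which joins amino acids. Names starting with Rps denote proteins of the small subunit and names starting with Rpl those of the large subunit. The acidic proteins Rplp0, Rplp1 and Rplp2 form the stalk of the large subunit that recruits elongation factors. Ribosomal protein genes are transcribed in nearly every cell type, because each ribosome needs a copy of almost every protein. Their promoters are compact and GC-rich. Transcription typically starts inside a run of pyrimidines (C or T), which gives the messenger RNA a 5′ terminal oligopyrimidine (TOP) tract. This tract lets the mTOR pathway control translation of these messages.

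The deposited data are 1 list of broad peaks per library on mm10, with 7608 and 13672 peaks in control libraries 1 and 2 and 13689 and 19886 in knockdown libraries 1 and 2. The lists do not give read depth, so a gene without a listed peak cannot be told from a gene with too few reads. A gene was said to hold a peak in a library if a peak lay within 1 kb of either of its ends in the RefSeq gene table. Peaks at an end of Zeb1 numbered 0 and 1 in control and 1 and 1 in knockdown libraries, which does not check the genotype. Of 10 endothelial marker genes, 3 and 5 held a gene-end peak in control and 6 and 6 in knockdown libraries. None of Pecam1, Tek, Emcn and Egfl7 held a gene-end peak in any library. Of 10 rod and cone photoreceptor genes, 0 and 7 held one in controls 1 and 2, and 0 and 6 in knockdown libraries 1 and 2. Of 6 pericyte genes none did in any library, and of 6 leukocyte genes 1 did, in control 1. In bulk libraries, a site accessible in fewer cells and a site less accessible in each cell cannot be told apart.

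Most ribosomal protein genes held a gene-end peak in every library but control 1. The count was 35 and 60 of 76 genes in controls 1 and 2, and 61 and 65 in knockdown libraries 1 and 2. As shares these were 46.1% and 78.9% in control and 80.3% and 85.5% in knockdown libraries. Values of a group are given throughout for library 1 and then library 2. Control 1 stood apart from the other 3 libraries, which lay close together. Over all 21631 genes the shares were 22% and 38.5% in control and 39.5% and 45.2% in knockdown libraries. The share of members was thus 2.09, 2.05, 2.03 and 1.89 times that of all genes in the same libraries.

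**Figure D1:**
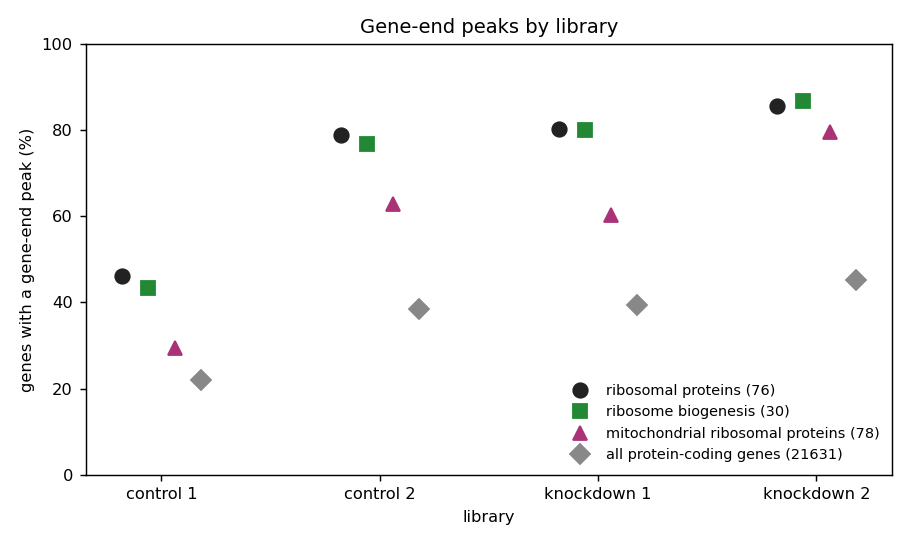
Share of genes with a peak within 1 kb of a gene end (vertical axis, percent) in each of the 4 libraries (horizontal axis), for the 76 ribosomal protein genes, 30 ribosome biogenesis genes, 78 mitochondrial ribosomal protein genes and all 21631 protein-coding genes. Ribosomal protein genes lie at 46.1% in control 1 and between 78.9% and 85.5% in the other 3 libraries, above all genes in each library.

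The difference between the groups could not pass a test with 2 libraries against 2. The mean count was 47.5 ± 17.7 members (SD, n = 2) in the controls and 63 ± 2.83 (SD, n = 2) in the knockdown libraries, a difference of 15.5 (two-sided exact permutation test, p = 0.333, the smallest value that this design allows). The difference was 3 members without control 1 and 28 without control 2. List length moved in the same direction as the counts. When each library was limited to its 7608 strongest peaks, 35 and 43 members held a peak in control and 49 and 33 in knockdown libraries, a difference of 2. Measured against all genes of the same library, members stood 24 and 40.5 percentage points higher in the controls and 40.8 and 40.3 points higher in the knockdown libraries. The means were 32.3 ± 11.6 and 40.5 ± 0.329 points (SD, n = 2 each), and the difference of 8.29 points did not pass (two-sided exact permutation test, p = 0.667). It was 0.0525 points without control 1, 16.5 without control 2, 16.9 with a −log10 q of at least 3 and 0.542 with equal list lengths.

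The members fell into a few patterns over the 4 libraries. A gene-end peak in all 4 libraries was found for 34 of 76 members, against 20.9% of all genes. Another 22 members held a peak in every library except control 1, a pattern of 12.6% of all genes. The next pattern was no peak in any library, with 8 members, against 51.5% of all genes. Only 2 members, Rps7 among them, had a peak in both knockdown libraries with none in a control, beside 3.80% of all genes with this knockdown-only pattern. No member was control-only, a pattern of 0.0324% of all genes. The share of knockdown-only members, 2.63%, was near that background. Another 3 members were held by the replicate 2 libraries alone, against 2.92% of all genes, and 1 by all but control 2, against 0.365%. A single library held 6 members. These were 1 in control 2 (1.32%), 2 in knockdown 1 (2.63%) and 3 in knockdown 2 (3.95%). Over all genes these single-library shares were 1.2%, 1.14% and 4.32%, in the same order.

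**Figure D2:**
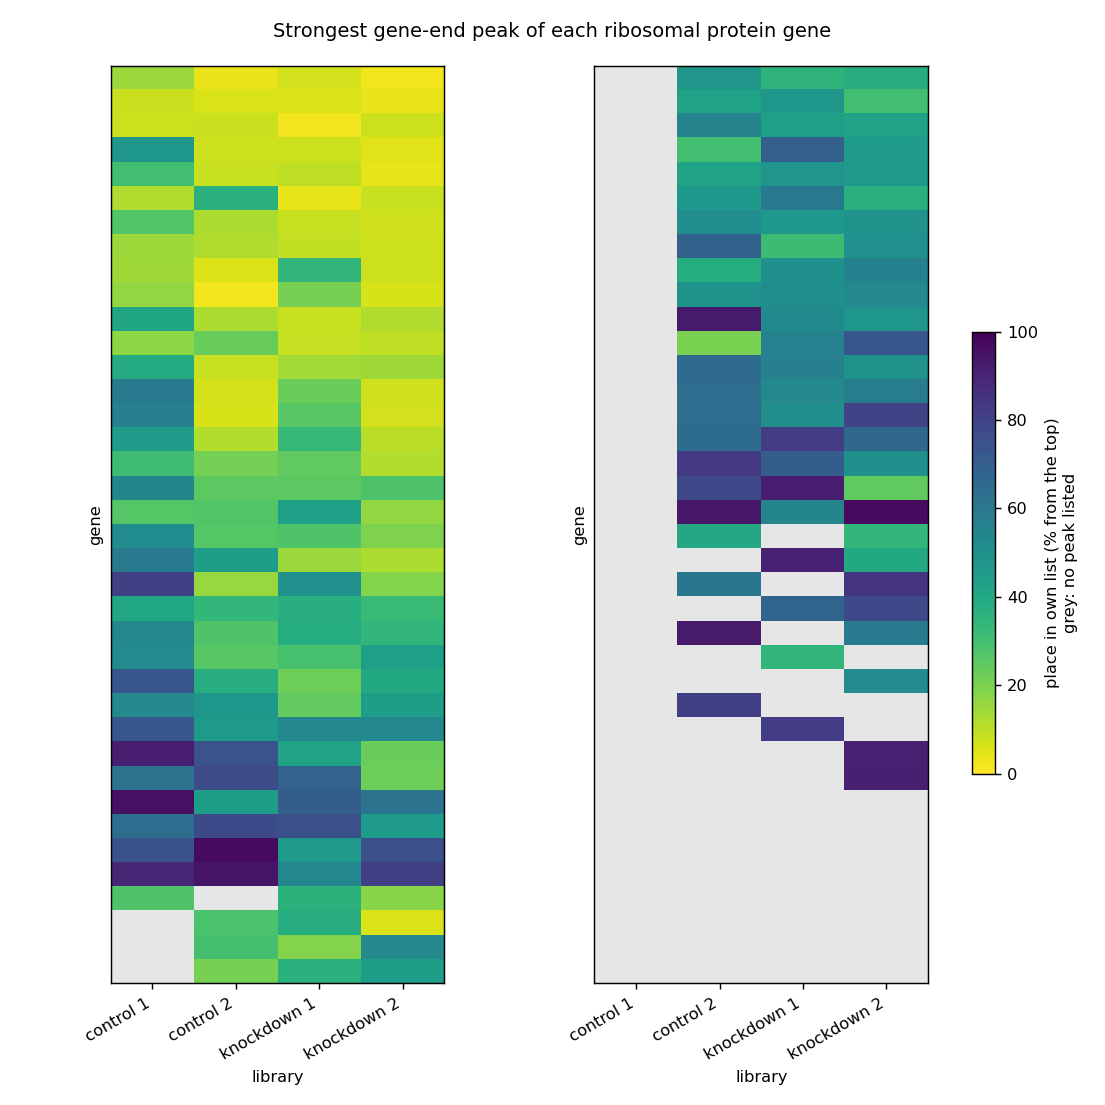
Place of the strongest gene-end peak of each of the 76 ribosomal protein genes (rows, without names) in each library (columns), as percent from the top of that library's own list ranked by −log10 q, with yellow for the strongest peaks and grey where no peak was listed. Genes are ordered by the number of libraries with a peak and then by median place, so that 34 genes have 4 coloured cells, the next 23 genes lack 1 library (control 1 for 22 of them), and the last 8 rows are grey throughout.

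Among the 43 large subunit genes outside the stalk, 16 and 35 held a gene-end peak in control and 31 and 36 in knockdown libraries. Of these genes, 16 were held by all 4 libraries, 15 by all but control 1, and 6 by none. Among the 30 small subunit genes, the counts were 18 and 22 in control and 27 and 26 in knockdown libraries. Of these, 17 were held by all 4 libraries, 5 by all but control 1, and 2 by none. The share in control 1 was 60% for small and 37.2% for large subunit genes. In control 2 the order was the other way round, 73.3% for small and 81.4% for large subunit genes. In the knockdown libraries the share was again higher for small subunit genes, 90% and 86.7%, against 72.1% and 83.7% for large subunit genes. The subunits were not tested against each other.

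Of the stalk genes, Rplp0 held a peak in all 4 libraries, and Rplp1 and Rplp2 in all but control 1. The Rplp0 peak ran within chromosome 5 from 115559222 to 115560026 after merging over libraries, across the start of the gene. It lay within the top 58.5% of the list in control 1, 6.39% in control 2, 22.3% in knockdown 1 and 7.38% in knockdown 2. Its place was thus weaker in control 1 than in the other 3 libraries. The peak of Rplp2 lay within the top 92.6% in control 2, 52.3% in knockdown 1 and 47.3% in knockdown 2. That of Rplp1 lay at 69% in control 2, 31.6% in knockdown 1 and 49.4% in knockdown 2. Places are ranks within lists of different lengths and do not measure a change between libraries.

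Rps7, a small subunit protein that also binds the p53 regulator Mdm2, had a peak over its start at chromosome 12 from 28635816 to 28636176. No peak was listed there in either control, where the nearest peaks lay 654948 and 13616 bp from the gene ends in controls 1 and 2. The peak was 200 bp wide and in the top 90.7% of its list in knockdown 1, and 361 bp wide and in the top 39.3% in knockdown 2. Its fold enrichment over the library background, as the authors' peak caller gave it, was 3.52 and 5.71. With equal list lengths Rps7 held a peak in no library, and with a −log10 q of at least 3 it held one in knockdown 2 alone.

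Other members with an uneven pattern ranged from weak to fairly strong peaks. Rps10, a small subunit protein near the entry of the messenger RNA channel, held a peak in all libraries but control 2, at chromosome 17 from 27635145 to 27635547. It was in the top 27.4% in control 1, 35.8% in knockdown 1 and 17.7% in knockdown 2, and the nearest peak in control 2 lay 6560 bp away. Rpl8, a large subunit protein near the peptidyl transferase centre, held a 200 bp peak in control 2 alone, in the top 80.9% of that list. Rps28 held a peak in knockdown 1 alone, in the top 34.2%. Rpl12, Rpl35a and Rps15 held one in knockdown 2 alone, in the top 91.3%, 90.8% and 51.8%. The peaks of Rpl12, Rpl35a and Rps28 also lay within 1 kb of an end of Lrsam1, Iqcg and Ndufa7, respectively.

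The replicate 2 libraries alone held peaks at Rpl5, Rpl14 and Rpl35. Rpl5, which with Rpl11 carries 5S ribosomal RNA into the large subunit, had a peak in the top 92.7% in control 2 and 58.4% in knockdown 2. Rpl11 itself was held by all but control 1, in the top 48%, 34.9% and 37.7% of control 2, knockdown 1 and knockdown 2. The peaks of Rpl14 lay in the top 39.6% in control 2 and 33.6% in knockdown 2, and those of Rpl35, both 200 bp wide, in the top 60.6% and 84.8%. Of the 10 photoreceptor genes, 6 had the same pattern over the libraries. Whether photoreceptor DNA had a part in these 3 members was not tested.

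The 8 members with no gene-end peak fell into different situations. For Rpl22 and Rps2, a peak was listed over the transcription start in all 4 libraries, at a start that lies inside the annotated gene. At Rpl22 this peak was 1198 and 1172 bp from the nearest gene end in control and 1167 and 1159 bp in knockdown libraries, just outside the 1 kb window. At Rps2 the distances were 1769, 1724, 1608 and 1689 bp in the same order. Rpl17 had its nearest peak 2292, 2226, 2228 and 1395 bp away. The members nearest to the edge from inside were Rpl4, with peaks 538 to 649 bp from a gene end, Rpl29, with peaks 360 to 549 bp away in the 3 libraries that held it, and Rpl7, with a peak 446 bp away in knockdown 1.

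No peak lay within 3 kb of an end of Rpl19, Rpl32, Rpl37a or Rps4x in any library. Rpl19 is a large subunit protein that reaches across to the small subunit, and its nearest peaks lay 137456, 25851, 32988 and 5663 bp away in control 1, control 2, knockdown 1 and knockdown 2. For Rps4x, the X-linked gene of a small subunit protein, they lay between 27455 and 27767 bp away in all 4 libraries. For Rpl37a they were 127800 to 128017 bp away in 3 libraries and 7482 bp away in knockdown 2. At Rpl38, known in mice from the Tail short mutation, the nearest peak was 2925 bp away in knockdown 2 and 3001 bp in knockdown 1. Absence from a list does not show that these promoters were closed.

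The other X-linked members did hold peaks. Rpl10, a late-joining protein of the large subunit, held a peak in all 4 libraries, in the top 51.9% and 26% in control and 29.1% and 43.7% in knockdown libraries. Rpl36a and Rpl39 were held by all but control 1, with the Rpl36a peak in the top 42.3%, 48% and 45.8% of control 2, knockdown 1 and knockdown 2. By chromosome, members were most numerous on chromosome 7, with 14 genes. Of these, 12 were held by all 4 libraries, against 22 of the 62 members elsewhere. Over all genes, 19.6% on chromosome 7 and 21.1% on the other chromosomes were held by all 4. Members on chromosome 7 were not tested against the rest.

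The strongest members, by the weakest place over the 4 lists, included Rps19, Rpl37, Rpl41 and Rpl15. Rps19, the gene most often mutated in Diamond-Blackfan anaemia, lay in the top 7.65% and 7.89% in control and 1.81% and 7.52% in knockdown libraries. Its merged region covered chromosome 7 from 24883908 to 24884778. Rpl37 lay in the top 8.02%, 5.79%, 5.75% and 3.47% for control 1 and 2 and then knockdown 1 and 2. Rpl15 lay in the top 14.9%, 2.98%, 6.71% and 2.22%. At Rpl41, which encodes a very short basic peptide, both ends of the gene held a peak in all 4 libraries. The far-end region, at chromosome 10 from 128547302 to 128548016, also lay within 1 kb of an end of Zc3h10. Rpsa, also known as the precursor of a laminin receptor, lay in the top 16.9% and 23.4% in control and 8.82% and 9.56% in knockdown libraries.

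The weakest among the 34 were Rpl7, Rpl28, Rps15a, Rps14 and Rpl3. Rpl28 lay in the top 95.4% and 44.4% in control and 70.6% and 61.8% in knockdown libraries. Rps14, the gene linked to anaemia in 5q- syndrome, lay in the top 91.6% and 74.5% in control and 42.4% and 22.6% in knockdown libraries. For Rpl7 these places were 74.9%, 97.2%, 46% and 75.6%, and its peaks also lay near an end of Rdh10. Over all members with a peak, the median place was the top 46.9% in control 1 and 37.7% to 37.9% in the other 3 libraries. For all genes with a gene-end peak the medians were 36.4% and 36.6% in control and 38% and 32.5% in knockdown libraries. The strongest peak lay in the top 25% of the list for 8 of 35 members in control 1, 19 of 60 in control 2, 19 of 61 in knockdown 1 and 26 of 65 in knockdown 2. These shares of 22.9%, 31.7%, 31.1% and 40% were below those of all genes with a gene-end peak, which were 35.2%, 37%, 35% and 41% in the same libraries.

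Peaks of members were wider in the knockdown libraries, and so were those of genes in general. For the 34 members held by all 4 libraries, the median width of the widest gene-end peak was 424 and 415 bp in control and 537 and 508 bp in knockdown libraries. The means were 419 ± 6.01 and 522 ± 20.5 bp (SD, n = 2 each), and the groups did not overlap (difference 103 bp, two-sided exact permutation test, p = 0.333, the smallest that 2 against 2 allows). In 19 of the 34 members both knockdown peaks were wider than both control peaks, among them Rps19, Rplp0 and Rpsa. This is near the background, since 51.5% of all 4529 genes held by all 4 libraries had this order. Rpl41 was counted among the 19 only through its far-end peak. Its start peak was 360 and 393 bp wide in control and 457 and 390 bp in knockdown libraries. The reverse order was found in 0 of the 34 members and in 1.55% of those genes. The median over those 4529 genes was 427 and 461 bp in control and 593 and 570 bp in knockdown libraries.

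With all members that held a peak, the median widths were 417 and 366 bp in control and 465 and 446 bp in knockdown libraries. The difference of 64.2 bp also stood at the smallest p of 0.333 (two-sided exact permutation test), and it was 38.5 bp without control 2. Single members varied more than the medians. At Rps16, a small subunit gene, the widths were 250 and 256 bp in control and 354 and 607 bp in knockdown libraries. At Rpl34 they were 292 bp in control 1, 1170 bp in control 2, 1294 bp in knockdown 1 and 438 bp in knockdown 2, so that the groups overlapped.

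**Figure D3:**
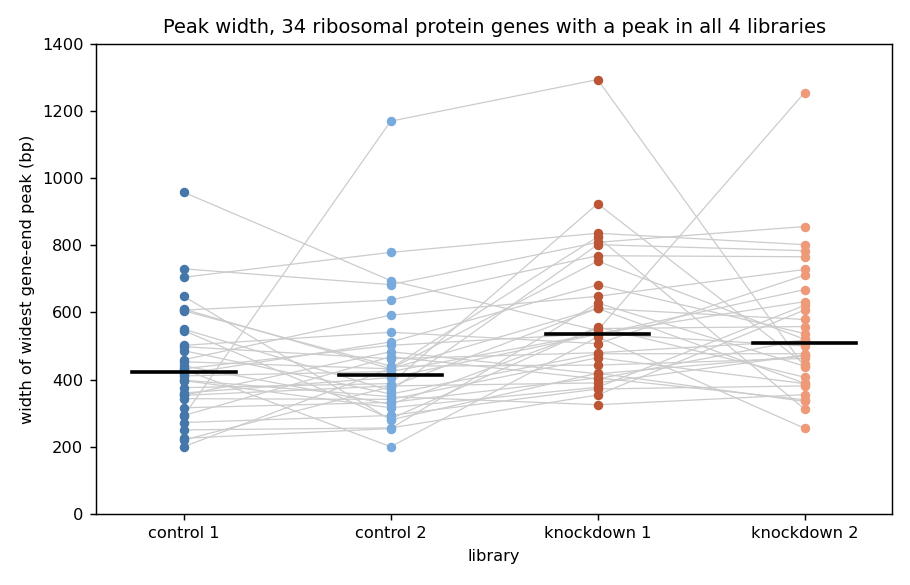
Width in bp (vertical axis) of the widest gene-end peak in each library (horizontal axis) for the 34 ribosomal protein genes held by all 4 libraries, with 1 point per gene, grey lines joining the same gene and black bars for the medians. The medians are 424 and 415 bp in control and 537 and 508 bp in knockdown libraries.

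Most peaks of members with a known start lay near it. A RefSeq promoter table gave strand and start for 56 of the 76 members, and 1 start only for 48 of them. Of the 48, 21 and 38 held a peak within 1 kb of the start in control and 39 and 42 in knockdown libraries. As shares these were 43.8%, 79.2%, 81.2% and 87.5%, against 21.9%, 38.7%, 39.5% and 44.7% of all genes with 1 listed start. A peak at the far end alone was found for 1 member (2.08%) in each library, which was Rpl4, against 0.868%, 1.3%, 1.2% and 1.47% of all genes. The Rpl4 peaks lay 5713 to 5824 bp from its start and near an end of Snapc5. Rpl18, held by all 4 libraries at its upstream gene end, had a peak within 1 kb of its listed start in knockdown 1 alone. In the other libraries its nearest peak lay 2569 to 2586 bp from that start. The strongest start peak covered the start itself for 19 of 21, 33 of 38, 37 of 39 and 39 of 42 members. For all genes with 1 listed start these shares were 80.8% and 85.5% in control and 88% and 88.1% in knockdown libraries.

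The centre of the start peak lay slightly upstream, with a median of −43.5 and −66.8 bp in control and −44 and −59.5 bp in knockdown libraries. Over all genes the medians were −75.5 and −50.5 bp in control and −36.5 and −33.5 bp in knockdown libraries. Rps25 and Rps26, chosen after their values were seen, had peaks further upstream. The centre at Rps26 lay at −329 bp in control 2, −327 bp in knockdown 1 and −341 bp in knockdown 2, and the peak did not reach the listed start. At Rps25 it lay at −242 bp, −418 bp and −378 bp in the same libraries, again short of the start, and its peaks also lay near an end of Trappc4.

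**Figure D4:**
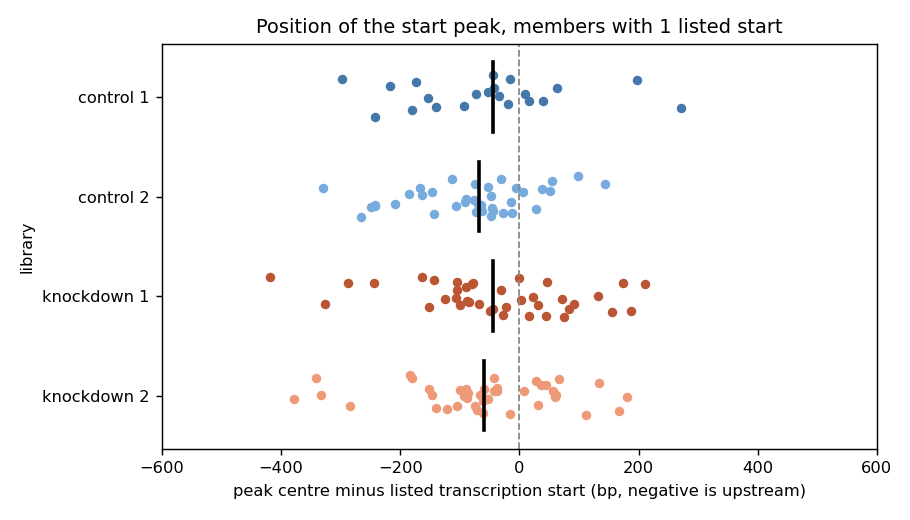
Distance in bp from the listed transcription start to the centre of the strongest peak within 1 kb (horizontal axis, negative upstream), by library (rows), for ribosomal protein genes with 1 listed start. Each point is 1 gene and black bars mark the medians, which lie between −66.8 and −43.5 bp. The vertical spread of points within a row has no meaning.

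The promoters differ in the longest pyrimidine run near the start, and the stretches below show it for members of 4 of the accessibility patterns. Each runs 5′ to 3′ on the coding strand from 60 bases before the listed start, with the start itself as the first of the last 20 bases (RefSeq, GRCm38.p6). Capitals mark the longest unbroken run of C or T found within 20 bases of the start. The marked run covers the start at Rpl15, Rpl28, Rplp2 and Rpl38. At Rpl37, Rpsa, Rps7, Rpl37a and Rps4x it does not include the start, so it need not be the tract in which transcription starts. The stretches of Rpl15 (chr14:18270967-18271046, minus strand), Rpl37 (chr15:5116553-5116632, plus), Rpsa (chr9:120127706-120127785, plus) and Rpl28 (chr7:4792905-4792984, plus) come from genes held by all 4 libraries. That of Rplp2 (chr7:141447591-141447670, plus) comes from a gene lacking a peak in control 1 alone, and that of Rps7 (chr12:28635934-28636013, minus) from the knockdown-only gene. Those of Rpl38 (chr11:114668520-114668599, plus), Rpl37a (chr1:72711200-72711279, plus) and Rps4x (chrX:102189372-102189451, minus) come from genes with no gene-end peak.
Rpl15: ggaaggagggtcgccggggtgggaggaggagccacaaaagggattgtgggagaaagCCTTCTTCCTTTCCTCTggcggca
Rpl37: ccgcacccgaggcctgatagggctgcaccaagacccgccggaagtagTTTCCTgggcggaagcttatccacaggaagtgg
Rpsa: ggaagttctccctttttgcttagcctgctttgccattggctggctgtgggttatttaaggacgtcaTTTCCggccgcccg
Rpl28: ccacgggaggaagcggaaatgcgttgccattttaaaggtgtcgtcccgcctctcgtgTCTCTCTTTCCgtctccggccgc
Rplp2: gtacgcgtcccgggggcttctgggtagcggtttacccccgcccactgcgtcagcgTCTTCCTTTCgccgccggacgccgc
Rps7: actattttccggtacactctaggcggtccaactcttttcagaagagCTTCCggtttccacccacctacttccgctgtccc
Rpl38: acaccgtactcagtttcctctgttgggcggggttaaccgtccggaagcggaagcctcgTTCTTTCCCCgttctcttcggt
Rpl37a: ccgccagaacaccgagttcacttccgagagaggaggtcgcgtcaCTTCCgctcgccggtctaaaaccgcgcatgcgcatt
Rps4x: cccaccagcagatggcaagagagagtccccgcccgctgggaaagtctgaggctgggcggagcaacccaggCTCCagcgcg

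Long runs were found on both sides of the accessibility pattern. The run was 17 bases at Rpl15, whose peaks were among the strongest, 11 at Rpl28, whose peaks were among the weakest, and 10 at Rpl38, which had no peak. It was 10 bases at Rplp2, 6 at Rpl37, 5 at Rpsa, Rps7 and Rpl37a, and 4 at Rps4x. Over the 66 promoter windows of the 56 members in the table, the median run was 7 bases, and 29 windows (43.9%) had a run of at least 8. Over all 21045 windows of protein-coding genes the median was 5 bases, and 16% had such a run. A run of at least 8 was present in 14 of 28 windows of members held by all 4 libraries, 8 of 19 of those lacking control 1 alone, and 2 of 8 of those with no gene-end peak. These patterns refer to gene ends and not to the listed starts. Rpl22 and Rps2, which had no gene-end peak, had a peak over a start in all 4 libraries. Of the members held by all 4, Rpl4 had a start peak in no library and Rpl18 in knockdown 1 alone. The listed starts may not be those used in endothelial cells. The run counts take the longest run within 20 bases of the start, whether or not it covers the start. These counts are descriptions and were not tested.

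Short motifs were counted on both strands of the same windows, from 250 bases before to 50 after the start. None of the 5 motifs contains another. The ETS core CCGGAAG, bound by factors such as GABP, was in 24 of 66 member windows (36.4%) and in 11.7% of all windows. The YY1 core AAGATGG was in 16.7% of member windows and 6.28% of all windows, and the SP and KLF motif GGGCGG in 60.6% and 46.7%. The TATA box TATAAA was in 9.09% and 12.7%. The E2-box CAGGTG, to which Zeb1 and related factors bind, was in 7 member windows (10.6%), of Rpl22, Rpl27, Rpl38, Rpl39, Rpl41 and Rps10, against 19.9% of all windows. Rps7 was not among them. By gene-end peaks, Rpl27 and Rpl41 of these 6 members were held by all 4 libraries, Rpl39 by all but control 1, and Rps10 by all but control 2. Rpl22 and Rpl38 had no gene-end peak, but Rpl22 had a peak over a start inside the gene in all 4 libraries. A match is a run of letters and not a bound site.

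The members also shared features outside the promoter. Their median length was 3170 bp, against 17300 bp for all genes, and 10 of the 76 (13.2%, against 11.3% of all genes) were at most 2 kb long, so that their end windows met. A snoRNA gene lay inside 29 of the 76 members (38.2%), against 1.72% of all genes. Such genes often sit in introns of ribosomal protein genes. Of these 29 hosts, 15 were held by all 4 libraries and 3 by none, and of the other 47 members 19 and 5. Among all 372 protein-coding genes with a snoRNA gene inside, 126 were held by all 4 libraries and 119 by none.

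Some peaks could not be assigned to the ribosomal protein gene alone. For 18 of the 68 members with a gene-end peak, a peak also lay within 1 kb of an end of another protein-coding gene, as at Rpl37 (Card6), Rpl15 (Nkiras1) and Rplp2 (Pidd1). Counting peaks at no other coding gene end, 28 and 47 members held a peak in control and 47 and 50 in knockdown libraries, and Rps7 was again knockdown-only. This setting was added after the data were seen. Neither the shared peaks nor this setting was counted over all genes, so these counts cannot be read as particular to the members.

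Related gene lists were counted in the same way. Fau, which encodes a ubiquitin-like protein fused to a small subunit protein and falls outside the naming rule, was knockdown-only. Of 7 ribosomal protein-like paralogs found in the gene table, such as Rpl22l1 and Rpl36al, 3 and 4 held a peak in control and 3 and 4 in knockdown libraries, and 0 were knockdown-only. Of 18 translation factors and other genes with TOP messages, such as Eef1a1, Eef2 and Pabpc1, 14 and 17 did in control and 17 and 16 in knockdown libraries. Here 14 were held by all 4 libraries and 0 were knockdown-only.

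Of 30 ribosome biogenesis genes, 13 and 23 held a gene-end peak in control and 24 and 26 in knockdown libraries, with 12 held by all 4 and 0 knockdown-only. Mitochondrial ribosomal protein genes, which build the separate ribosome of the mitochondrion, gave lower counts. Of 78, 23 and 49 held a peak in control and 47 and 62 in knockdown libraries, and 23 were held by all 4 libraries. Of the 78, 8 were knockdown-only, among them Mrpl12 and Mrps6, against 2 of the 76 cytosolic members. No gene of these lists was control-only. Over all protein-coding genes, 20.9% were held by all 4 libraries, 3.80% were knockdown-only and 0.0324% were control-only. With so low a share, a list of this size with no control-only gene carries little information. The lists were not tested against each other.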

How the data were processed

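ATAC-seq peaks were analysed in 4 libraries, 2 control and 2 Zeb1 knockdown, grouped by their titles. Per the submitters' processing notes, the build was mm10, and the tools named include MACS2 2.1.1, Bowtie2 2.3.2, bedtools 2.26.0, SAMtools 1.3, Picard 2.9.2 and Trimmomatic 0.36. Their settings, the filter, and any shift of reads for the transposase are not given in the sources used here. The deposited lists give each peak a fold enrichment, which is a ratio over its own library, the caller's score, and p and q as −log10 values. The authors deposited 1 list per library, so these values only ranked and filtered peaks within a list (by −log10 q, then fold enrichment).

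Gene ends came from a RefSeq table and starts and promoter sequences from a RefSeq promoter table, both on GRCm38.p6. Members and lists were chosen with earlier results of these data known. No test compared lists of genes. Named were members with a peak in no library, in 1, or in 1 group only, X-linked, stalk and Rpsa genes, the 5 widest, narrowest, strongest and weakest of those held by all 4 libraries, and members sharing a peak. Rps10, Rpl5, Rpl11, Rpl14, Rpl35, Rpl4, Rpl29, Rps25 and Rps26 were named after their values were seen. Some genes that meet this rule are not reported here by name. Alternatives changed the q threshold, list length, window, gene end, libraries and pairing. Overlap functions were tested on simulated peaks. Python 3.11.15 with pandas 2.3.3 was used.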

Additional observations from a re-analysis of the deposited data

How the results depend on the processing

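The differences in member counts, in points above all genes and in peak width kept their direction in every alternative run, but they could not pass the threshold in any. The replicate number as a block left the count difference at 15.5, with a smallest possible p of 0.5 (exact sign-flip permutation test). Same-numbered libraries deviated together weakly (correlation 0.12 over all genes), and the labels do not say what a number shares, so it was not taken as a pairing. Where −log10 q had to reach 3, all 4 libraries held 16 members. With equal list lengths, 0 members were knockdown-only, 1 (Rpl28) was control-only and 20 had no gene-end peak. With the peak over the gene end itself, 5 were knockdown-only and 13 had none. A 3 kb window left 4 with none. With starts only, 1 was knockdown-only and 5 had none, of 56 members. With peaks at no other coding gene end, 24 had none. When each library was left out in turn, members held by all remaining libraries numbered 34 to 56, knockdown-only members 3 to 24, and control-only members 0 to 1. The highest counts came without control 1 (56) and without control 2 (24 knockdown-only). With only 1 control left, knockdown-only asks for absence from that library alone. The shares of all genes with these patterns are not given here for the alternatives, so these shifts cannot be read as particular to the members. The share of all genes with a gene-end peak moved too. With a −log10 q of at least 3 it was 13.4% and 30.5% in control and 31.4% and 36.7% in knockdown libraries. Depth is unknown, which limits every statement on missing peaks.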
